A study of Oryza sativa with 9 samples.

Results

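The genes that build gibberellin in rice were followed in submerged leaves, from the plastid cyclase CPS1 to the GA 3-oxidases. The set was chosen by locus and holds 10 genes: CPS1, KS1, KO2, KAO, GA20ox1, GA20ox2, GA20ox3, GA20ox4, GA3ox1 and GA3ox2. Of these, 8 had an entry among the 38652 of the deposited table, and GA20ox3 and GA3ox1 are not analysed here. A filter on low values, a mean of at least 0.5 FPKM over all libraries, left 7 genes for testing and took out GA3ox2. FPKM counts the fragments of a gene relative to its exon length and to all mapped fragments of the library, so levels are per length and genes can be set side by side.

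All plants were IR64, an indica variety of Oryza sativa described as intolerant of submergence, and every plant was submerged, so the effect of flooding itself was not measured. Seedlings aged 20 days received 25 mL of spray, 2 days later they went under 100 cm of water, and leaves were taken after 4 days. The spray was solvent alone in the control, 100 mg per L of gibberellic acid (GA) in the GAT group and 200 mg per L of paclobutrazol (PB) in the PBT group. Ethanol at 0.1% is recorded for all groups, and the study dissolved GA and PB in ethanol. The sample labels name ethanol as the control solvent and the methods of the study name methanol. Each group had 3 libraries, called biological replicates by the study, and how many seedlings went into each library was not given in the sources used here.

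Gibberellin synthesis starts in the plastid, where CPS and KS cyclize a common diterpene precursor to ent-kaurene. The cytochrome P450 enzymes KO and KAO oxidize ent-kaurene to the first gibberellin, and KO is the enzyme that paclobutrazol inhibits. The GA 20-oxidases and GA 3-oxidases, soluble dioxygenases that use 2-oxoglutarate, then make the active forms, while GA 2-oxidases inactivate them. In plants, active gibberellin is known to lower transcripts of some synthesis genes and to raise those of GA 2-oxidases. GA20ox2 is the semidwarf gene SD-1 of rice breeding, and IR64 is a semidwarf variety that carries a defective allele of it, so its transcript level in this variety is no measure of enzyme. How that allele bears on the FPKM of GA20ox2 was not examined, so its level beside other genes is uncertain in this respect.

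Among the members called below, GA20ox2 had the largest log2 fold change, and the study designed a primer pair for quantitative PCR of this transcript. The pair is shown as the study's own assay for this transcript. No value given here was measured with it, and it is printed in lower case, with no part marked. Both primers are 20 bases long, with a GC content of 55.0% (forward) and 50.0% (reverse), and the gene lies on chromosome 1.
GA20ox2 forward primer: cgctgacgatcatggaactc
GA20ox2 reverse primer: agttgcaccgcatgattgag

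In the 9 libraries 19550 to 20818 entries reached 0.5 FPKM. GAT replicate 1 stood apart, with the fewest such entries (19550), 17529 entries at 0 against 14322 to 15728 in the others, and a median of 0.576 FPKM against 0.767 to 0.816. Its part in the results was not tested, and the values without it are given where it holds the lowest level of a member. Total reads per library cannot be had from FPKM. The study reports read totals, which were not used here, so depth was not taken into account. An exact 0 can be a failed estimate, since in 508 cases 1 library of a group was at 0 while the others of that group exceeded 10 FPKM. Of 7 leaf blade markers (RBCS, RCA and LHCB loci) 6 were measured, and their summed level was 24230 to 25467 FPKM in the control group, 12587 to 13064 under GA and 16371 to 17173 under PB. The lowest PB sum, in PBT replicate 2, holds the LHCB locus LOC_Os01g41710 at 0, against 1060 and 1099 FPKM in PBT replicates 1 and 3. The meristem marker OSH15 and the seed marker GluA1 were at 0 in all 9 libraries. The summed level of 3 markers of dividing cells was 8.69 to 13.6 FPKM in the control group, 2.38 to 6.82 under GA and 6.82 to 11.2 under PB. The latter sum is nearly all CDKB1;1, a cyclin-dependent kinase gene, with means of 10.5, 5.26 and 8.32 FPKM in that order, which was a DEG in no comparison, while CYCB2;1 and CDKB2;1 were at 0 in most libraries. The leaf blade sum did not overlap between the groups. The part of these markers in the results below was not tested. In such bulk samples, fewer cells of a type and less RNA per cell cannot be told apart.

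Late in the pathway, GA20ox2 and GA20ox4 transcripts rose under GA, and both were higher in GAT than in PBT. In the middle, the P450 genes KO2 and KAO were higher in PBT than in GAT, KO2 by its main entry only. That call was lost in 13 of 21 alternative settings for KO2 and in 3 of 20 for KAO. These settings include a fit with mixed groups, described below. The cyclases CPS1 and KS1 passed no test. In GAT/Control 2 of the 7 tested genes were DEGs (differentially expressed genes, called here at adjusted p under 0.05 together with a difference of at least 1 on the log2 scale), both upward, where 8.42% of all 22946 tested entries were DEGs and 4.71% were upward ones. By limma no member was a DEG in PBT/Control (1 had an unadjusted p under 0.05), against a background of 4.34%, and in PBT/GAT 4 of 7 were DEGs, against 6.30%. Of those 4, 2 were upward and 2 downward, where 3.48% of all tested entries were upward and 2.82% downward DEGs. These counts take only the main entry of each gene. A second entry of the KO2 locus, described below, was a DEG downward in PBT/Control and in PBT/GAT. Without control replicate 1, 2 or 3 or GAT replicate 1 or 3 the GAT/Control count was 1, without GAT replicate 2 it was 3, and without PBT replicate 1 or 2 the PBT/GAT count was 2. The comparisons share libraries, so they are not independent of each other.

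**Figure D1:**
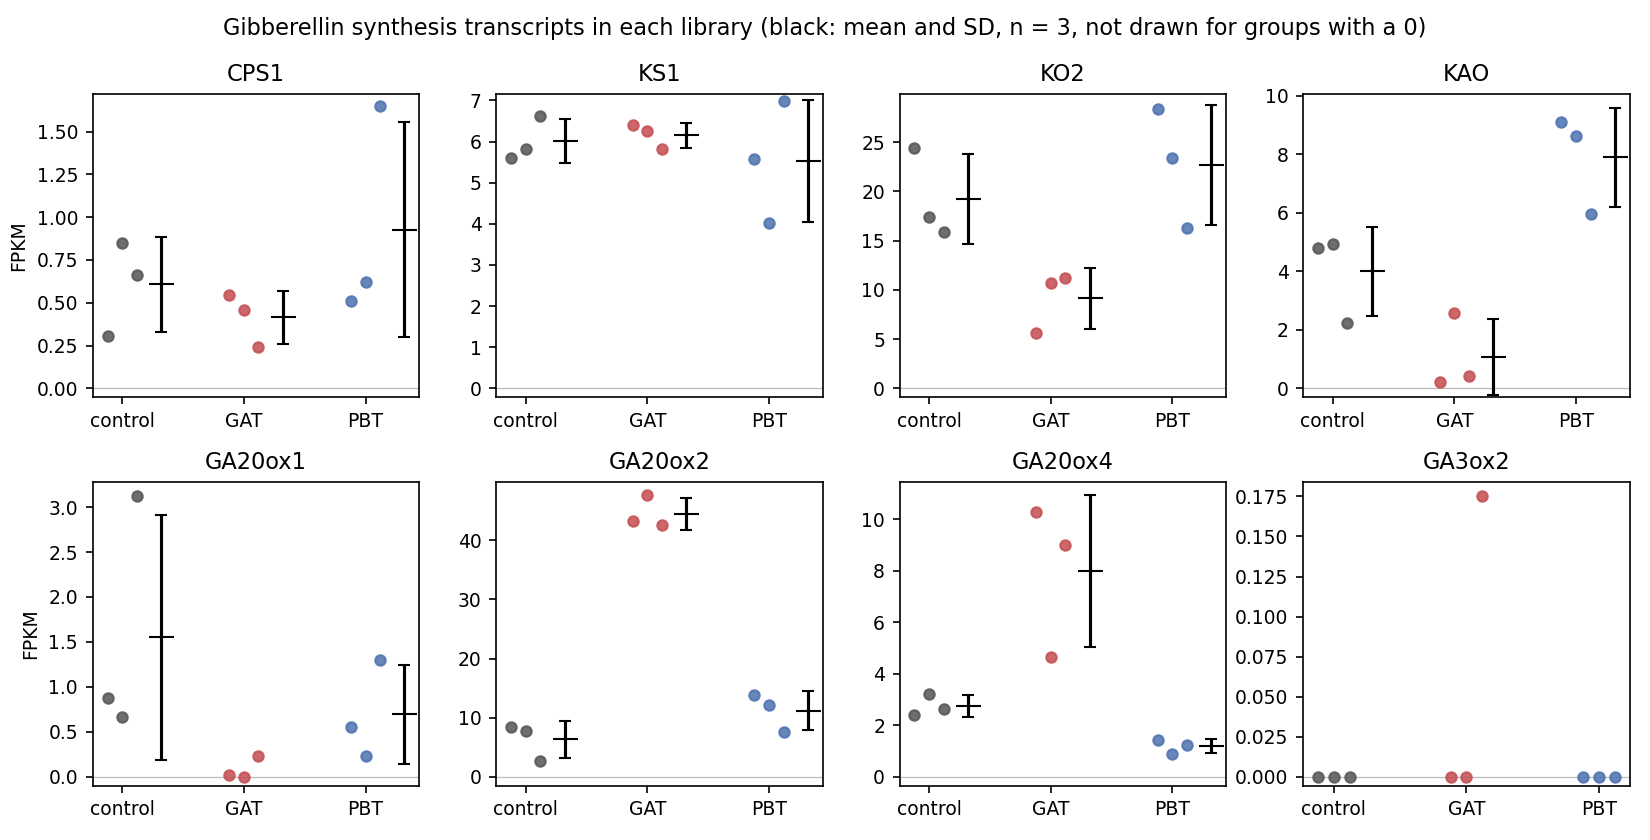
Transcript level in FPKM (linear axis, a separate scale for each gene) of the 8 measured genes in the 3 libraries of control, GAT and PBT; points are libraries, and black marks are the mean and SD, not drawn for groups with a value of 0. GA20ox2 sits between 42.6 and 47.6 FPKM in GAT and at or below 13.8 elsewhere, while KAO is at or below 2.56 in GAT and at or above 5.95 in PBT.

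The order of the members differed between the groups. In the control, KO2 was the most abundant, at 19.2 ± 4.58 FPKM (SD, n = 3), above every library of the other members. By the means, GA20ox2, KS1, KAO, GA20ox4, GA20ox1 and CPS1 followed. Of these neighbours only KS1 and KAO had libraries that did not overlap, and in control replicate 3 GA20ox1 (3.12 FPKM) was above GA20ox2 (2.75), GA20ox4 (2.64) and KAO (2.24). In GAT, GA20ox2 stood above all others, and KO2, GA20ox4 and KS1 came next, where KO2 overlapped GA20ox4 and GA20ox4 overlapped KS1. KAO, CPS1 and GA20ox1 were the lowest there. In PBT, KO2 was again first, at 22.7 ± 6.09 FPKM, then GA20ox2, KAO and KS1, each overlapping the next, and GA20ox4, CPS1 and GA20ox1 could not be ordered beyond their spread.

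Both cyclases showed no difference that passed the test. CPS1 (LOC_Os02g17780, chromosome 2), which makes ent-copalyl diphosphate, was at 0.307, 0.852 and 0.663 FPKM in the control group, 0.546, 0.457 and 0.240 under GA and 0.512, 0.619 and 1.65 under PB. The groups overlapped in every comparison, and the highest value was PBT replicate 3. On the log2(FPKM + 1) scale, on which all fold changes here are given and which understates the change of low genes, CPS1 differed by -0.18 in GAT/Control (95% interval -0.91 to 0.55) and by 0.23 in PBT/Control (-0.50 to 0.96). KS1 (LOC_Os04g52230, chromosome 4), which turns that product into ent-kaurene, was at 5.61, 5.82 and 6.63 FPKM in the control group, 6.39, 6.25 and 5.81 under GA and 5.58, 4.02 and 6.99 under PB. Its libraries lay within a narrow range, with overlap throughout. The log2 fold changes of KS1 were 0.03 (-0.44 to 0.50) in GAT/Control, -0.13 (-0.60 to 0.34) for PBT against control and -0.16 (-0.63 to 0.31) for PBT against GAT, all 3 intervals within 1 on the log2 scale.

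KO2 (LOC_Os06g37364, chromosome 6) encodes ent-kaurene oxidase. It was at 24.4, 17.4 and 15.8 FPKM in the control group, 5.59, 10.7 and 11.2 under GA and 28.4, 23.4 and 16.3 under PB. All GAT libraries were below all control and all PBT libraries, while control and PBT overlapped. KO2 was a DEG in PBT/GAT, with a log2 fold change of 1.24 ± 0.30 (SE) and a limma adjusted p of 0.0388. In GAT/Control the value was -1.03 ± 0.30 with an adjusted p of 0.0653, which missed the threshold (0.0493 with a filter at 5 FPKM, 0.0493 to 0.304 over all alternatives), and in PBT/Control it was 0.22 with an adjusted p of 0.760. The PBT/GAT call of KO2 was lost in 13 of 21 alternative settings, where the adjusted p ran from 0.0275 to 0.657 over all alternatives. Among them were the fits without control replicate 2 or 3, GAT replicate 1, 2 or 3, or PBT replicate 1 or 2, in which the adjusted p reached 0.116. GAT replicate 1 was the lowest library for KO2, and without it the log2 fold change in PBT/GAT was 0.96 (adjusted p = 0.0872). Ranges and lost calls over the alternatives, here and below, include a fit on the files of single samples. In that fit the file of GAT replicate 1 holds PBT replicate 3, so the groups are mixed.

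The KO2 locus had more than 1 entry, and they went different ways. The entry above holds the 3 reference transcripts of the locus. A second entry, of 2 assembled transcripts that do not carry the locus name, was at 4.55, 2.76 and 3.67 FPKM in the control group, 4.27, 3.03 and 3.09 under GA and 1.31, 1.01 and 0.315 under PB. Here the PBT libraries were the low ones, below all others. The second entry fell in PBT/Control by 1.33 on the log2 scale (adjusted p = 0.0279) and in PBT/GAT by 1.28 (adjusted p = 0.0260), both by limma, and differed by -0.06 in GAT/Control. With a pseudocount of 0.1 the 2 called values were -2.09 and -2.02. The PBT/Control call was lost in 7 of 19 alternatives (adjusted p 0.0191 to 0.497) and the PBT/GAT call in 8 of 19 (0.0188 to 0.827). Those lost calls included PBT/Control without control replicate 1 or 3 or PBT replicate 2 or 3, and PBT/GAT without GAT replicate 1, 2 or 3 or PBT replicate 2 or 3, with an adjusted p of up to 0.0904.

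The main entry made up 83.9% ± 2.59 of the summed FPKM of the KO2 locus in the control group, 70.9% ± 12.4 under GA and 95.7% ± 2.33 under PB (SD, n = 3). With the entries of the locus summed, the log2 fold change in PBT/GAT was 0.84 with an adjusted p of 0.0810, no longer a DEG. The remaining entry was at 0 except for 0.636 FPKM in PBT replicate 2. KO1, KOL4 and KOL5, further P450 genes of the same family, have neighbouring locus numbers, and how reads were shared between such relatives is not given in the sources used here, so the KO2 values are uncertain in this respect. KO1 was at or below 0.0878 FPKM in all libraries, KOL4 at or below 2.10 and KOL5 at or below 1.95.

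**Figure D2:**
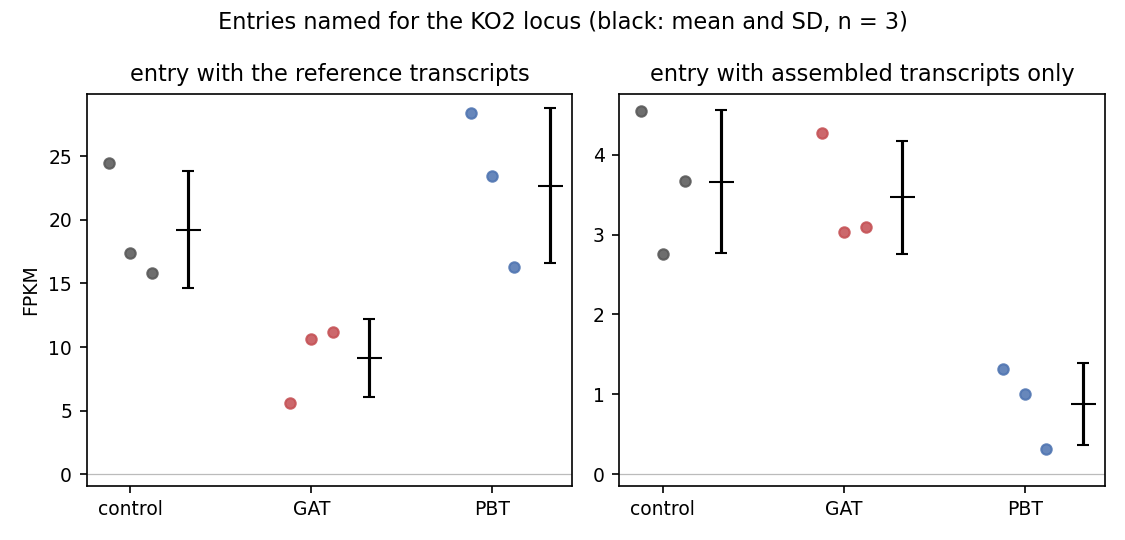
FPKM (linear axes, separate scales) of the 2 main entries of the KO2 locus by library, with the mean and SD of each group (n = 3) in black. The entry with reference transcripts is lowest in GAT (5.59 to 11.2 FPKM), and the entry with only assembled transcripts is lowest in PBT (0.315 to 1.31 FPKM).

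KAO (LOC_Os06g02019, chromosome 6) encodes ent-kaurenoic acid oxidase, the step after KO. It was at 4.79, 4.94 and 2.24 FPKM in the control group, 0.231, 2.56 and 0.412 under GA and 9.08, 8.63 and 5.95 under PB. The PBT libraries were above all others, and of the GAT libraries only replicate 2 reached into the control range. KAO was a DEG in PBT/GAT, with a log2 fold change of 2.26 ± 0.43 (limma adjusted p = 0.0138) and a mean FPKM 7.39 times as high. Without PBT replicate 1 the adjusted p was 0.0528 and without PBT replicate 2 it was 0.0531, both above 0.05, in a range of 0.00416 to 0.657 over the alternatives. Without GAT replicate 1, the lowest library for KAO, the log2 fold change in PBT/GAT was 1.97 (adjusted p = 0.0444). In GAT/Control it was -1.39 ± 0.43 (-2.33 with a pseudocount of 0.1) with an adjusted p of 0.0772. Without GAT replicate 2 it was -1.87 with an adjusted p of 0.0143, a DEG, where the alternatives ranged from 0.0143 to 0.639. In PBT/Control it was 0.87 with an adjusted p of 0.322, not a DEG although the libraries did not overlap.

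GA20ox2 (LOC_Os01g66100, chromosome 1) was at 8.49, 7.80 and 2.75 FPKM in the control group, 43.2, 47.6 and 42.6 under GA and 13.8, 12.2 and 7.51 under PB. The GAT libraries formed a tight group far above the rest, and PBT replicate 3 fell within the control range. GA20ox2 rose in GAT/Control by a log2 fold change of 2.74 ± 0.36 (limma adjusted p = 0.00160), with means of 44.5 ± 2.74 against 6.35 ± 3.13 FPKM (SD, n = 3), 7.01 times as high. It was lower in PBT than in GAT, with a log2 fold change of -1.94 ± 0.36 and an adjusted p of 0.0122. In PBT/Control the log2 fold change was 0.80 (95% interval -0.02 to 1.63, adjusted p = 0.267), and 0.37 without control replicate 3. The study also reported this gene, as SD-1, to be higher in GAT than in the control and PBT. It proposed the gene as a possible key point where PB suppresses gibberellin synthesis. Here the PBT mean, 11.2 FPKM, was not below the control mean. Leaving out any 1 library kept the GAT/Control call of GA20ox2, at log2 fold changes of 2.31 to 2.98 and an adjusted p of at most 0.00836, and the PBT/GAT call, with an adjusted p of at most 0.0453.

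GA20ox4 (LOC_Os05g34854, chromosome 5, described in the deposited annotation as a gibberellin 20 oxidase 2) is a further gene of the same enzyme class. It was at 2.39, 3.23 and 2.64 FPKM in the control group, 10.3, 4.67 and 9.01 under GA and 1.41, 0.888 and 1.25 under PB. No libraries overlapped between any pair of groups, with GAT highest and PBT lowest. GA20ox4 was lower in PBT than in GAT, with a log2 fold change of -1.99 ± 0.29 (limma adjusted p = 0.00358) and a GAT mean 6.74 times the PBT mean. In GAT/Control it rose by 1.21 ± 0.29 (adjusted p = 0.0284), 2.90 times by the means, and that call was lost in 9 of 20 alternatives, whose adjusted p ran from 0.00794 to 0.688. These include leaving out control replicate 1, 2 or 3 or GAT replicate 1 or 3, with an adjusted p between 0.0544 and 0.0903. In PBT/Control its log2 fold change was -0.78 with an adjusted p of 0.174 and an unadjusted p of 0.0243. This was the only tested member with an unadjusted p under 0.05 in PBT/Control by limma, where 19.8% of all tested entries had one.

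GA20ox1 (LOC_Os03g63970, chromosome 3) was at 0.874, 0.663 and 3.12 FPKM in the control group, 0.0155, 0 and 0.233 under GA and 0.554, 0.231 and 1.30 under PB. It was the one GA 20-oxidase with its lowest values in GAT, where all libraries were below all control libraries. The log2 fold changes of GA20ox1 were -1.12 ± 0.42 in GAT/Control (limma adjusted p = 0.133), -0.52 for PBT against control (0.559) and 0.60 for PBT against GAT (0.449), so it was in no comparison a DEG. At a pseudocount of 0.1 its GAT/Control value was -3.09 (adjusted p = 0.0608, in a range of 0.0608 to 0.495 over the alternatives), and the PBT/GAT value 2.10. GA20ox1 passed the filter of 0.5 FPKM only through the control, as the mean of the other 2 groups was 0.389 FPKM.

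**Figure D3:**
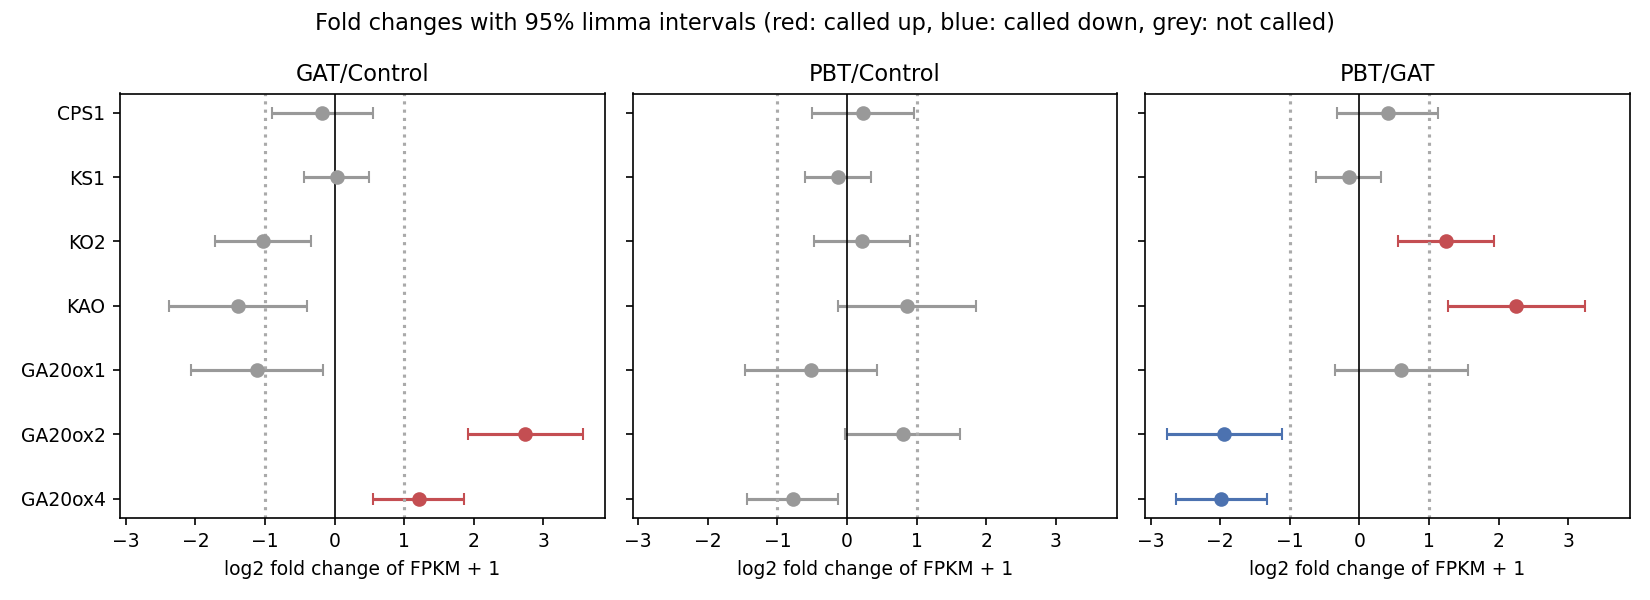
Log2 fold change of FPKM + 1 for the 7 tested genes, one panel for each comparison, with 95% limma intervals; red points are DEGs that were higher, blue points DEGs that were lower, grey points no DEGs, and dotted lines mark a log2 fold change of 1 in size. GA20ox2 (2.74) and GA20ox4 (1.21) are DEGs in GAT/Control, no gene is in PBT/Control, and KO2 (1.24), KAO (2.26), GA20ox2 (-1.94) and GA20ox4 (-1.99) are in PBT/GAT. KO2 is drawn by its main entry only.

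Summed over the 3 measured GA 20-oxidase genes, the level was 10.7 ± 1.85 FPKM in the control group, 52.6 ± 0.882 under GA and 13.0 ± 2.86 under PB (SD, n = 3). GA20ox2 made up 32.3% to 72.2% of that sum in the control libraries, 80.8% to 91.1% in GAT and 74.6% to 91.6% in PBT. GA20ox1 reached 36.7% in control replicate 3, where GA20ox2 was at its lowest, and at most 0.450% in GAT. The share of GA20ox4 was 26.3% ± 5.45 in the control group, 15.2% ± 5.49 under GA and 9.36% ± 2.90 under PB, so its share was not highest where its level was. These shares were not tested.

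**Figure D4:**
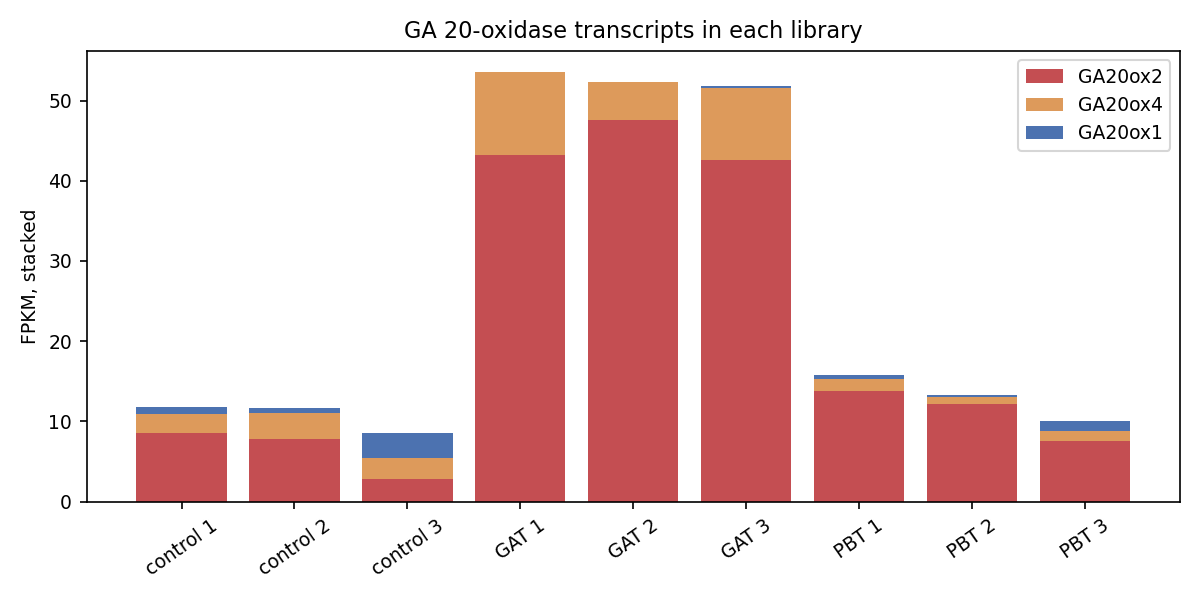
FPKM of GA20ox2, GA20ox4 and GA20ox1 stacked for each of the 9 libraries (linear axis from 0). The 3 GAT bars reach 51.8 to 53.5 FPKM, against 8.51 to 11.8 in the control and 10.1 to 15.8 in PBT, and GA20ox2 fills most of every bar but that of control replicate 3.

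GA3ox2 (LOC_Os01g08220, chromosome 1), which catalyses the last step to active gibberellin, was listed at 0 in 8 libraries and at 0.175 FPKM in GAT replicate 3. Another entry of its locus was at 1.18 FPKM in GAT replicate 2 and at 0 elsewhere. With so few values above 0, no comparison was made for the final step.

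Read over the 7 tested genes together, the groups did not overlap for 4 in GAT/Control (29.5% of all tested entries), 2 in PBT/Control (26.3%) and 4 in PBT/GAT (30.0%). Their median log2 fold change was -0.18, 0.22 and 0.41 in the same order of comparisons, beside 0.03, -0.04 and -0.07 over all tested entries. These medians mix steps that differed in opposite directions, since in PBT/GAT both P450 genes were DEGs upward and 2 of 3 GA 20-oxidases downward. GA20ox1 is among the 4 in GAT/Control and passed the filter only through the control, which favours a difference. The counts and medians are therefore no support for the set. As a description over the 9 libraries, which share the 3 group differences, KO2 and KAO had a Pearson r of 0.89, KAO and GA20ox4 one of -0.95, and GA20ox1 and GA20ox2 one of -0.90, on log2(FPKM + 1).

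For each member that was a DEG, the 3 tested loci with the most similar pattern were taken by the same Pearson r over the 9 libraries. For GA20ox2 they were LOC_Os05g08570 (0.987), described as the Aux/IAA gene OsIAA15, LOC_Os02g31860 (0.980) and LOC_Os06g44500 (0.974). OsIAA15, of a family of auxin response repressors, averaged 23.5 FPKM in the control group, 58.8 under GA and 30.1 under PB. For GA20ox4 they were LOC_Os04g40990 (0.987), LOC_Os12g42420 (0.986), described as a putative DNA binding protein, and LOC_Os04g55560 (0.985). Nearest to KAO were LOC_Os01g15770 (0.964), LOC_Os03g04710 (0.960) and LOC_Os01g36580 (0.953), the last described as an auxin-induced protein. Nearest to KO2 were LOC_Os01g03710 and LOC_Os06g22919 (both 0.962) and LOC_Os07g14160 (0.955), which the deposited table leaves without a description.

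The genes that remove gibberellin were read beside those that make it. Of 11 listed inactivation genes 8 were tested, namely 7 GA 2-oxidases and EUI1, a P450 gene that deactivates gibberellin in rice. In GAT/Control 3 of the 8 rose and none fell, where 4.71% of all tested entries were upward DEGs, all 8 values were positive and the median log2 fold change was 1.04, beside 0.03 over all tested entries. In PBT/Control none of the 8 was a DEG by limma (2 had an unadjusted p under 0.05, beside 19.8% of all tested entries). These 2 were GA2ox10 (log2 fold change 1.11, limma adjusted p = 0.168) and GA2ox7 (0.90, adjusted p = 0.187). GA2ox10 differed by 1.26 in GAT/Control (adjusted p = 0.0835), and its GAT and PBT libraries overlapped. In PBT/GAT 1 of the 8 was lower, beside 2.82% of all, with a median of -0.76 against -0.07 over all. GA2ox4, 1 of the 3 that rose, passed the filter only through GAT, which favours a difference, so the count and median are no support for the list. GA2ox7 was at 1.49, 1.14 and 1.25 FPKM in the control group, 12.3, 6.31 and 10.3 under GA and 2.54, 2.19 and 5.85 under PB. GAT was the high group for it, above both others. GA2ox7 rose in GAT/Control by a log2 fold change of 2.17 (limma adjusted p = 0.00389), also with any 1 library left out. In PBT/GAT it differed by -1.27 (adjusted p = 0.0519), a DEG without GAT replicate 2 (0.0464) or PBT replicate 3 (0.0214), in a range of 0.0214 to 0.581 over the alternatives.

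GA2ox3 was at 15.6, 9.58 and 12.0 FPKM in the control group, 49.9, 43.0 and 42.0 under GA and 19.5, 22.0 and 5.93 under PB. It rose in GAT/Control by 1.80 on the log2 scale (limma adjusted p = 0.0260) and was lower in PBT than in GAT by a log2 fold change of -1.63 (adjusted p = 0.0460). The GAT/Control call of GA2ox3 was lost in 6 of 21 alternatives (adjusted p 0.00130 to 0.589), among them without control replicate 2 or 3 or GAT replicate 1, 2 or 3. Its PBT/GAT call was lost in 15 of 21 (0.0308 to 0.976), among them leaving out any single library except PBT replicate 2 or 3. GA2ox4, at or below 0.422 FPKM in the control and at 3.88, 2.19 and 1.65 in GAT, rose by 1.59 (adjusted p = 0.0215), or by 3.61 with a pseudocount of 0.1. The mean of its other 2 groups was 0.459 FPKM, under the filter. The call of GA2ox4 was lost in 6 of 20 alternatives (0.0143 to 0.309), among them without control replicate 1 or 2 or GAT replicate 1 or 2.

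**Figure D5:**
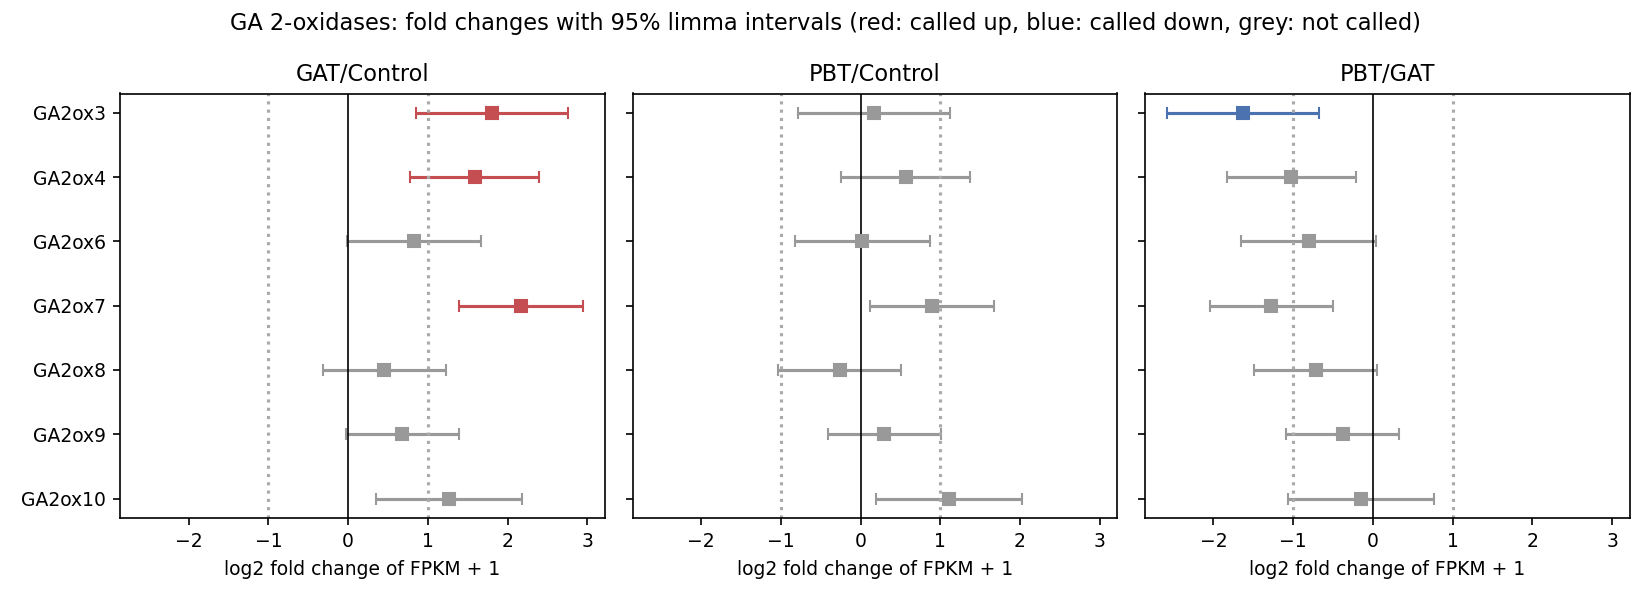
Log2 fold change of FPKM + 1 for the 7 tested GA 2-oxidases in the 3 comparisons, with 95% limma intervals, coloured as for the synthesis genes (red higher, blue lower, grey no DEG). In GAT/Control all 7 points lie above 0 and GA2ox3 (1.80), GA2ox4 (1.59) and GA2ox7 (2.17) are DEGs, while in PBT/GAT GA2ox3 (-1.63) is the only DEG.

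Among 5 tested genes of gibberellin perception and signalling only SLR1 was a DEG, in PBT/GAT, where 6.30% of all tested entries were DEGs. SLR1 is the rice DELLA repressor of gibberellin responses. It was at 52.9, 55.7 and 49.2 FPKM in the control group, 94.8, 80.0 and 86.2 under GA and 29.5, 37.7 and 37.8 under PB. The 3 groups stood apart, in the order GAT, control, PBT, as for GA20ox4. SLR1 was lower in PBT than in GAT by a log2 fold change of -1.29 (limma adjusted p = 0.000834). The differences in GAT/Control (0.71, adjusted p = 0.0118) and PBT/Control (-0.58, adjusted p = 0.0450) passed on p but not on the fold limit, and the latter had an adjusted p between 0.0513 and 0.124 with any 1 library left out.

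Among 9 tested genes of plastid precursor supply, the locus listed as DXS2 (LOC_Os07g09190, described as a transketolase) was the only DEG. It was a DEG in GAT/Control and in PBT/Control, where 8.42% and 4.34% of all tested entries were DEGs. It was at 0.344, 0.295 and 0 FPKM in the control group, 3.96, 3.88 and 3.57 under GA and 1.49, 3.74 and 2.61 under PB. The control was the low group, below both treatments. DXS2 rose in GAT/Control by 2.00 on the log2 scale (limma adjusted p = 0.00231) and in PBT/Control by 1.54 (adjusted p = 0.0147), the latter lost in 4 of 20 alternatives (0.00966 to 0.137), among them without PBT replicate 2 or 3. With a pseudocount of 0.1 these values were 3.91 and 3.30. The median log2 fold change of the 9 was 0.10 in GAT/Control and -0.22 in PBT/Control.

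None of the 6 tested relatives of the early enzymes, whose products include diterpenoid phytoalexins, was a DEG in any comparison, with medians of 0.10 for GAT against control, 0.17 for PBT against control and -0.06 for PBT against GAT. By limma 1, 2 and 1 of the 6 had an unadjusted p under 0.05 in these comparisons, beside 25.1%, 19.8% and 23.3% of all tested entries. KSL10 and KOL4 passed the filter only through their highest group. Neither of the 2 tested regulators of GA synthesis genes was a DEG, and EATB in GAT/Control alone had an unadjusted p under 0.05. EATB, an ERF gene (LOC_Os09g28440), was at 43.2, 36.4 and 40.0 FPKM in the control group, 1.84, 1.44 and 1.20 under GA and 42.8, 0 and 55.6 under PB. The GAT libraries were far below the control, and PBT replicate 2 was listed at 0 although the others of its group were high. Its log2 fold change in GAT/Control was -4.04 ± 1.30 (SE) with a limma adjusted p of 0.0860. The fit shares its spread between all groups, so the 0 in PBT replicate 2 enters that SE too. The study reported EATB as repressed by GA, and its quantitative PCR showed the same pattern.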

How the data were processed

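RNA-seq of 9 leaf libraries was analysed from deposited values. The authors removed low-quality reads, aligned the others by Tophat to rice pseudomolecules, ran Cufflinks for assembly and abundance, and deposited FPKM per gene and library; the submitters' processing notes also name Bowtie 0.12.2. Entry names of the MSTRG form are not explained in the sources used here. Groups came from the sample labels. In the files of single samples, 4 of 9 hold another library by their own header, so the series-level table was used. It has 0 columns without a sample. Values were taken as log2(FPKM + 1), and entries were kept where the mean reached 0.5 FPKM (22946 of 38652). Whole reads could not be recovered from the FPKM, so no count model was run. The read totals that the study reports were not used. limma 3.58.1 in R 4.3.3 (moderated variance with a trend) was fitted to 3 group means over 9 libraries, with Benjamini-Hochberg adjustment per comparison over all tested entries. A DEG needed adjusted p under 0.05 together with a difference of at least 1 on the log2 scale. With 3 libraries against 3, an exact two-sided permutation test of a single gene cannot go below 0.1, so none is given. The p-values set a group difference against the spread of these libraries within groups, pooled over the 3 groups and moderated.

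All members were named, with the listed genes that were DEGs and the 3 loci most similar to each member that was a DEG; other genes named beside them were picked with their values in view. The members and lists were chosen with earlier results of these data known. One listed signalling locus was left out because its description names another protein. Alternatives were other pseudocounts, filters, scalings and fits, each library left out, and the files of single samples. The last of these puts PBT replicate 3 into the GAT group, and ranges and counts over the alternatives include it. The fit was tested on simulated data. Figures were drawn with matplotlib 3.10.9 in Python 3.11.15.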

Additional observations from a re-analysis of the deposited data

How the results depend on the processing

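Over 21 fold changes of members, 425 values under the alternatives gave 395 with the same call, 28 that lost and 2 that gained one, and none with a called direction turned. The 2 DEGs of GAT/Control became 1 with no filter, with only the groups compared, with the replicate block and at an adjusted p under 0.01 without the fold limit, 0 with the file of each sample, and 1 to 3 with a library left out. The 4 of PBT/GAT became 2 with a filter at 5 FPKM, under which KAO and GA20ox4 were no longer tested and KO2 and GA20ox2 kept their calls, 1 at an adjusted p under 0.01, 0 with the file of each sample, and 2 to 4 with a library left out. The 0 of PBT/Control stayed 0 throughout. Calls of the second KO2 entry by itself are not in these counts. With the file of each sample, in which 4 files hold another library, GA20ox2 in GAT/Control was 1.96 (adjusted p = 0.216, against 0.00112 to 0.216 over its alternatives), and the DEGs over all entries were 490, 237 and 14 against 1933, 996 and 1446. With the filter at 5 FPKM they were 1200, 681 and 933.

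No pairing of the libraries by replicate number was seen. Same-numbered libraries had correlations of deviations of -0.0370 to 0.0124 over 9 pairs, and 4 of 18 correlated best with their own number. The study describes a randomized block design with pots as replications, but whether these numbers mark blocks was not given in the sources used here. These correlations cannot settle it. With the replicate block, member DEGs were 1, 0 and 3, and DEGs over all entries were 1600, 747 and 1130. The alternatives for listed genes and the second KO2 entry were added after seeing the data. Promoter motifs and protein comparisons were not run, for want of sequence tables.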
